A study of Mus musculus with 18 samples.

Results

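The baseline transcriptome of mouse embryonic fibroblasts (MEFs) was described from the vehicle-treated libraries numbered 2 to 6, which are 5 of the 18 libraries of the series. MEFs are cultured from the connective tissue of mouse embryos, and the labels give neither their strain nor whether they were primary or immortalised. The controls were kept for 24 h in DMEM with fetal bovine serum and vehicle (0 µM uracil), and the cells of the other arms received 10 µM or 30 µM uracil, the pyrimidine base that uridine phosphorylase-1 releases from uridine, in the same medium. The control library numbered 1 was left out because 54.2% of its read pairs were unaligned, against 1.96% to 3.09% in the 5 libraries used. Those 5 held 18.4 M, 20.8 M, 12.2 M, 13.3 M and 11.6 M counts assigned to genes, in the order of their numbers. Control libraries are named below by these numbers, whose meaning the labels do not give.

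Fibroblasts build and remodel connective tissue. They secrete fibrillar collagens, fibronectin and matricellular proteins, crosslink them with lysyl oxidases, hold on to them through integrins, and exchange growth factors and chemokines with neighbouring cells. In culture on plastic with serum they also carry the contractile filaments of myofibroblasts.

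The table held 55487 genes. A count in at least one library was found for 25563 of them (46.1%), and a count in each library for 16936 (30.5%). Each library alone detected 19883 to 21941 genes. A gene was called expressed at 1 CPM (1 count for every 1000000 gene counts, with library sizes scaled by TMM) or more in each of the 5 libraries, and 12394 genes (22.3%) met this rule. Of 21614 protein-coding genes, 11294 (52.3%) were expressed, 4594 (21.3%) were counted at lower levels, and 5726 (26.5%) had no count. Levels between genes were compared as TPM, in which counts are divided by exon length and scaled to 1000000 in each library. By mean TPM, 11546 nuclear protein-coding genes reached 1, 7960 reached 10, 1329 reached 100 and 89 reached 1000.

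The counts were concentrated in few genes, and to the same degree in every library. The 10 most abundant genes of each library held 8.36% ± 0.172 of its gene counts (SD, n = 5), the 100 most abundant held 24.3% ± 0.333, and the 1000 most abundant held 55.0% ± 0.316. Between 735 and 768 genes accounted for 50% of the counts of a library.

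Cytoskeleton, translation and matrix genes led the ranking. Actb, the cytoplasmic beta-actin, was highest among nuclear protein-coding genes at 13060, 13023, 12638, 12059 and 12944 TPM in libraries 2 to 6, a mean of 12745 ± 418 (SD, n = 5). The gene lies at 5:142888870-142892509 on the minus strand of GRCm39. Eef1a1, which delivers charged tRNAs to the ribosome, had 9657 ± 428 TPM, and Eef2, which moves the ribosome along the message, had 6583 ± 715. Eef2 spread more than Eef1a1, from 5746 TPM in library 2 to 7387 in library 5. Of the 25 leading genes, 10 encoded cytosolic ribosomal proteins or carried such a name, among them Rplp1 at 11316 ± 413 TPM, Rplp0 at 4460 ± 199 and Rpl8 at 3860 ± 153. Contractile and cytoskeletal genes were the next set, with Vim, the mesenchymal intermediate filament, at 4795 ± 293 TPM, Acta2, the smooth muscle actin of myofibroblasts, at 4301 ± 310, Tmsb4x, which binds actin monomers, at 3044 ± 208, Tubb5 at 2905 ± 94.2, Tagln at 2757 ± 165 and Actg1 at 2697 ± 152. Lgals1, a secreted galectin, had 5818 ± 187 TPM and Ftl1, the ferritin light chain, 5318 ± 122.

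**Figure D1:**
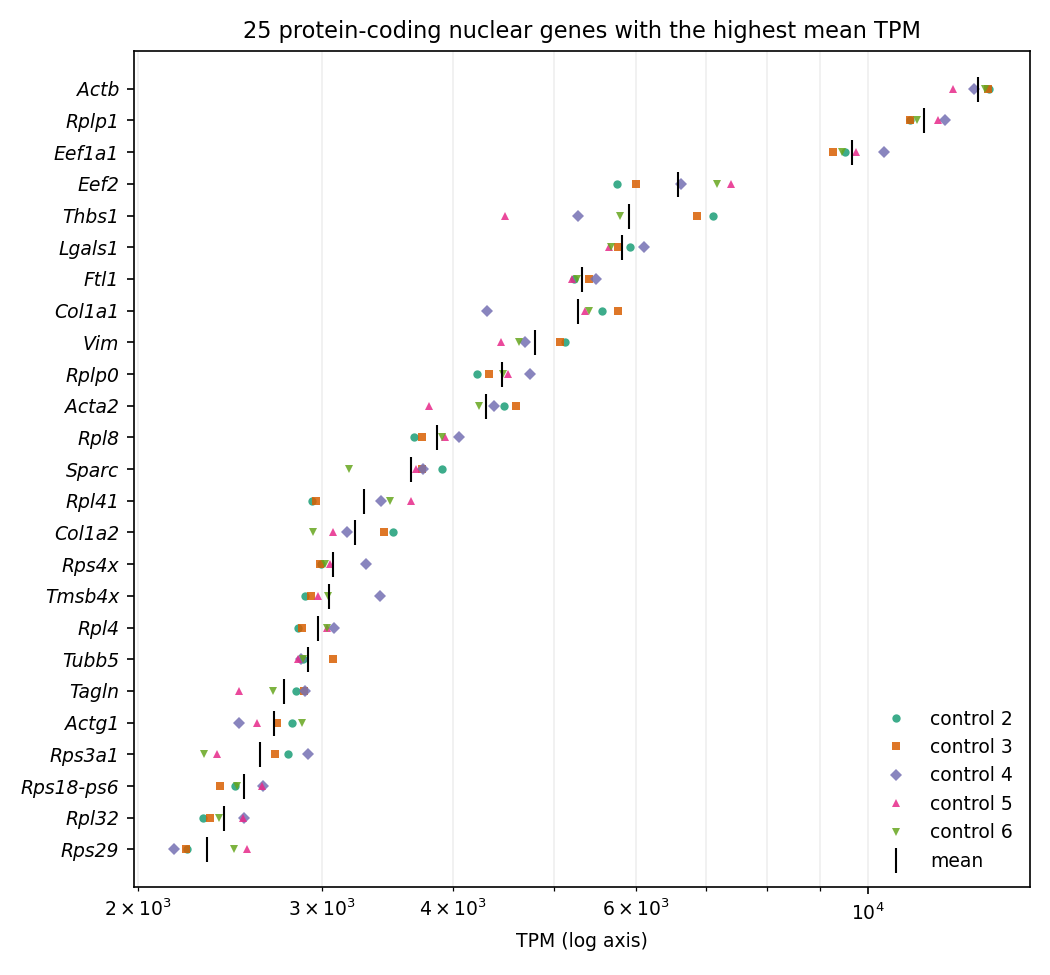
TPM of the 25 nuclear protein-coding genes with the highest mean, on a log axis, with 1 point for each of control libraries 2 to 6 and a bar at the mean. Actb stands at 12059 to 13060 TPM, and Thbs1 spreads more widely (4488 to 7104 TPM) than its neighbours Eef2 and Lgals1.

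By CPM, Thbs1 spread the most of the 25 genes, with a coefficient of variation of 17.4%, before Eef2 at 11.8% and Rpl41 at 10.9%. Thbs1, the matricellular glycoprotein thrombospondin-1, had 7104, 6865, 5269, 4488 and 5782 TPM in libraries 2 to 6, so that libraries 2 and 3 were the highest. It lies at 2:117941974-117957616 on the plus strand of GRCm39, where 2 genes overlap it on the other strand. Col1a1 and Col1a2, the chains of type I collagen, had means of 5278 ± 561 and 3226 ± 243 TPM. Col1a1 was lowest in library 4 (4316 TPM against 5355 to 5761 in the others), whereas Col1a2 was lowest in library 6 at 2941 TPM. Sparc, a collagen-binding glycoprotein, had 3652 ± 276 TPM and was also lowest in library 6.

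The order within this set depended on the gene length used. With the length of the Ensembl canonical transcript in place of all merged exons, a choice made after seeing the data, Eef1a1 led with Actb second, and 17 of the 25 genes remained. With CPM, which takes no account of length, 11 remained. Of the 25 genes, 14 were overlapped by a gene on the other strand and 10 by a gene on the same strand, and pairs that align to several places were not counted, so genes with near-identical copies such as ribosomal protein genes are undercounted.

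The start regions of leading genes differed in base composition, and their sequences are shown for 6 of them to make this visible. The RefSeq table of promoter windows (GRCm38.p6, 250 bases before the start to 50 after it) held a single window for 15 of the 25 genes. The 60 bases before the start are printed 5′ to 3′ on the gene's strand, with the letters TATAAA, the core of the TATA box, in capitals.
Vim: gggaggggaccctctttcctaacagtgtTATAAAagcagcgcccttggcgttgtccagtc
Eef2: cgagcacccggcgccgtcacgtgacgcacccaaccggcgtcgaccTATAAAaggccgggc
Eef1a1: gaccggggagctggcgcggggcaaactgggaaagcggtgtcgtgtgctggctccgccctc
Col1a2: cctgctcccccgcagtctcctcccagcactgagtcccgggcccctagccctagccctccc
Sparc: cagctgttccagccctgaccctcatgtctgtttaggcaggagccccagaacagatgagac
Acta2: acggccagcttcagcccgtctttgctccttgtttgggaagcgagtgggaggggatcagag

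These lie at chr2:13574251-13574310 on the plus strand (Vim), chr10:81176571-81176630 on the plus strand (Eef2), chr9:78481725-78481784 on the minus strand (Eef1a1), chr6:4505558-4505617 on the plus strand (Col1a2), chr11:55420081-55420140 on the minus strand (Sparc) and chr19:34255374-34255433 on the minus strand (Acta2), all on GRCm38.p6. TATAAA began 32 bases before the start in Vim and 15 bases before it in Eef2. The ratio of observed to expected CpG over the whole window was 1.11 in Eef2 and 0.697 in Eef1a1, but 0.470 in Col1a2, 0.421 in Vim, 0.270 in Acta2 and 0.174 in Sparc. On the gene's strand TATAAA occurred in 4 of the 15 windows (26.7%), before the start in Vim and Eef2 and after it in Ftl1 and Rplp0, and in 14 of 66 windows (21.2%) of the 100 genes with the highest mean TPM. The share was 4.43% over the windows of all expressed protein-coding genes, 17.2% over those with no count, 8.46% over all protein-coding genes and 9.49% over all 22862 single windows. On either strand (TATAAA or its complement TTTATA) the shares were 26.7%, 22.7%, 6.91%, 22.7%, 11.9% and 14.8% in the same order. The median CpG ratio was 0.797 for expressed genes, 0.193 for those with no count and 0.637 for all protein-coding genes. These letter matches are descriptions of the windows and were not tested.

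By gene class, protein-coding genes held 95.1% ± 0.157 of gene counts (SD, n = 5). Processed pseudogenes held 0.940% ± 0.0334, and long non-coding RNA genes 0.596% ± 0.0144, with 275 of 9656 long non-coding genes expressed. Genes for ribosomal proteins took 5.29% ± 0.294 of counts (82 of 85 expressed), collagens 3.93% ± 0.310 (25 of 44 expressed), core and linker histones 0.466% ± 0.0575 and the 13 mitochondrial mRNAs 0.326% ± 0.0195. Mitochondrial ribosomal RNA varied most among these classes, with 0.605%, 0.622%, 0.196%, 0.514% and 0.492% of counts in libraries 2 to 6, and library 4 stood below the others. Its larger gene mt-Rnr2 had 4789 TPM in library 4 and 11894 to 15473 TPM in the others. The libraries were made after ribosomal RNA depletion, and its part in this value was not tested.

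Small structured RNAs were among the leading non-coding genes by TPM. Rpph1, the RNA of ribonuclease P, which trims the 5′ end of tRNA precursors, had 83584 ± 8977 TPM (73686 to 95014), more than any protein-coding gene on that scale. The other leaders were Rprl3, a gene related to it, at 13444 ± 1650 TPM, mt-Rnr2 at 11928 ± 4306, the small nucleolar RNAs Snora73a at 10046 ± 386, Snora73b at 3851 ± 1171 and Snord17 at 2605 ± 710, and Gm26448 at 4372 ± 970. Gm9794, Gm15772 and Rpsa-ps10 had 2732 ± 249, 2184 ± 140 and 2060 ± 38.5 TPM. Only genes of 200 bases or more entered the TPM scale. The lead of Rpph1 depended on gene length, by which TPM divides the counts. Without length it did not lead, since the 20 genes of its class (ribozymes) together held 0.730% ± 0.0922 of gene counts. Col1a2 alone had 8854 to 10461 CPM. One identifier that the annotation used here did not name, ENSMUSG00000065037, held 1.01% ± 0.0898 of all counts. Among long non-coding genes, named after their values were seen, Malat1, a nuclear-retained transcript, had 1912 ± 126 CPM, and the imprinted H19 had 364 ± 86.5 CPM, with 232 CPM in library 6 and 358 to 474 CPM in the others. Rn7s6 had 12.2 to 23.9 CPM in libraries 2 to 5 and 267 CPM in library 6.

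The 13 mitochondrial mRNAs were counted very unevenly. mt-Co1, a core subunit of cytochrome c oxidase, had 6731 ± 414 TPM, mt-Nd1 1429 ± 190 and mt-Cytb 1112 ± 228. mt-Co2 and mt-Co3 of the same oxidase had 16.5 ± 5.49 and 11.5 ± 1.18 TPM, and mt-Atp8 had no count in any library, which allows up to 0.0394 CPM (3 counts over the 76231304 counts of the 5 libraries). In all, 9 of the 13 were expressed. Reads that fit several places are lost before counting, and how far this lowers single mitochondrial genes was not tested.

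Among secreted proteins, matrix glycoproteins and collagens had the highest summed levels, at 20988 ± 3075 and 17661 ± 1645 TPM. The secreted lists held 438 genes, of which 188 (42.9%) were expressed, against 52.3% of all protein-coding genes. All 5 lysyl oxidases, which crosslink collagen and elastin, 31 of 34 matrix glycoproteins, 8 of 11 laminins and 9 of 14 proteoglycans were expressed. Besides the type I chains, the collagens were led by Col5a2 at 2218 ± 248 TPM and Col5a1 at 1825 ± 268, which nucleate fibrils, and by Col3a1 at 1585 ± 265. Col1a1 alone made up 29.9% of the summed TPM of the 44 collagen genes. Fn1, the fibronectin gene, had 2121, 2540, 1682, 1866 and 1880 TPM in libraries 2 to 6, a mean of 2018 ± 331, and ranked 31st among nuclear protein-coding genes. Fbln2, a fibulin of elastic fibres and basement membranes, was close to it at 2094 ± 169 TPM.

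Proteoglycans were led by Bgn (biglycan) at 644 ± 98.6 TPM and Hspg2 (perlecan) at 268 ± 37.4, with Aspn at 185 ± 42.3. Lox had 1281 ± 285 TPM, Loxl1 494 ± 47.7 and Loxl3 168 ± 31.0, and Lox had 1563 and 1614 TPM in libraries 2 and 3 and 1021 to 1158 TPM in the others. The leading laminins were nearly level, with Lama5 at 218 ± 15.6 TPM, Lamc1 at 216 ± 7.85 and Lamb2 at 213 ± 34.3, differences smaller than the spread of Lamb2. Of 42 metalloproteinases 21 were expressed, led by the membrane-bound collagenase Mmp14 at 311 ± 16.1 TPM, the gelatinase Mmp2 at 175 ± 27.6 and Adamts1 at 151 ± 35.1. Of 68 protease inhibitors 18 were expressed. Serpinh1, which is the collagen chaperone of the endoplasmic reticulum and is not itself secreted, led at 1841 ± 91.4 TPM, before Timp3, an inhibitor of metalloproteinases, at 861 ± 158, and Serpinf1 at 563.

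The lists of growth factors and their modulators each summed to less than the laminins (903 ± 31.5 TPM). Insulin-like growth factor binding proteins led their list (6 of 9 expressed, summed level 542 ± 74.3 TPM) with Igfbp4 at 137 ± 42.3 TPM, Igfbp2 at 115 ± 18.4 and Igfbp3 at 101 ± 41.1. Of 43 FGF, PDGF, VEGF, HGF and EGF ligands 19 were expressed, with Hbegf, a ligand of the EGF receptor, at 91.2 ± 27.8 TPM, Vegfa at 75.5 ± 6.43 and Ereg at 36.4 ± 15.9. Of 31 TGF-beta superfamily ligands 10 were expressed, and Tgfb3 at 172 ± 11.1 TPM led the activin subunits Inhba at 139 ± 40.5 and Inhbb at 67.5 ± 6.68. Tgfb3 and Inhba differed by less than the spread of Inhba. Of 33 Wnt ligands and secreted Wnt modulators 14 were expressed, and the 3 leaders were modulators: the Wnt-binding Sfrp2 at 223 ± 57.7 TPM and the R-spondins Rspo3 at 51.7 ± 12.6 and Rspo2 at 46.9 ± 23.5.

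Of 41 chemokines 11 were expressed. Cxcl5, a neutrophil attractant, had 333, 261, 229, 214 and 199 TPM in libraries 2 to 6, and the monocyte attractants Ccl7 and Ccl2 had means of 190 ± 85.8 and 146 ± 34.1 TPM. Interleukins, interferons and colony-stimulating factors were mostly absent, with 11 of 63 expressed and 39 without a count. Csf1, the growth factor of macrophages, led with 200 ± 22.4 TPM and made up 72.0% of the summed TPM of its list, before Clcf1 at 18.1 ± 1.26 and Tslp at 15 ± 1.26.

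**Figure D2:**
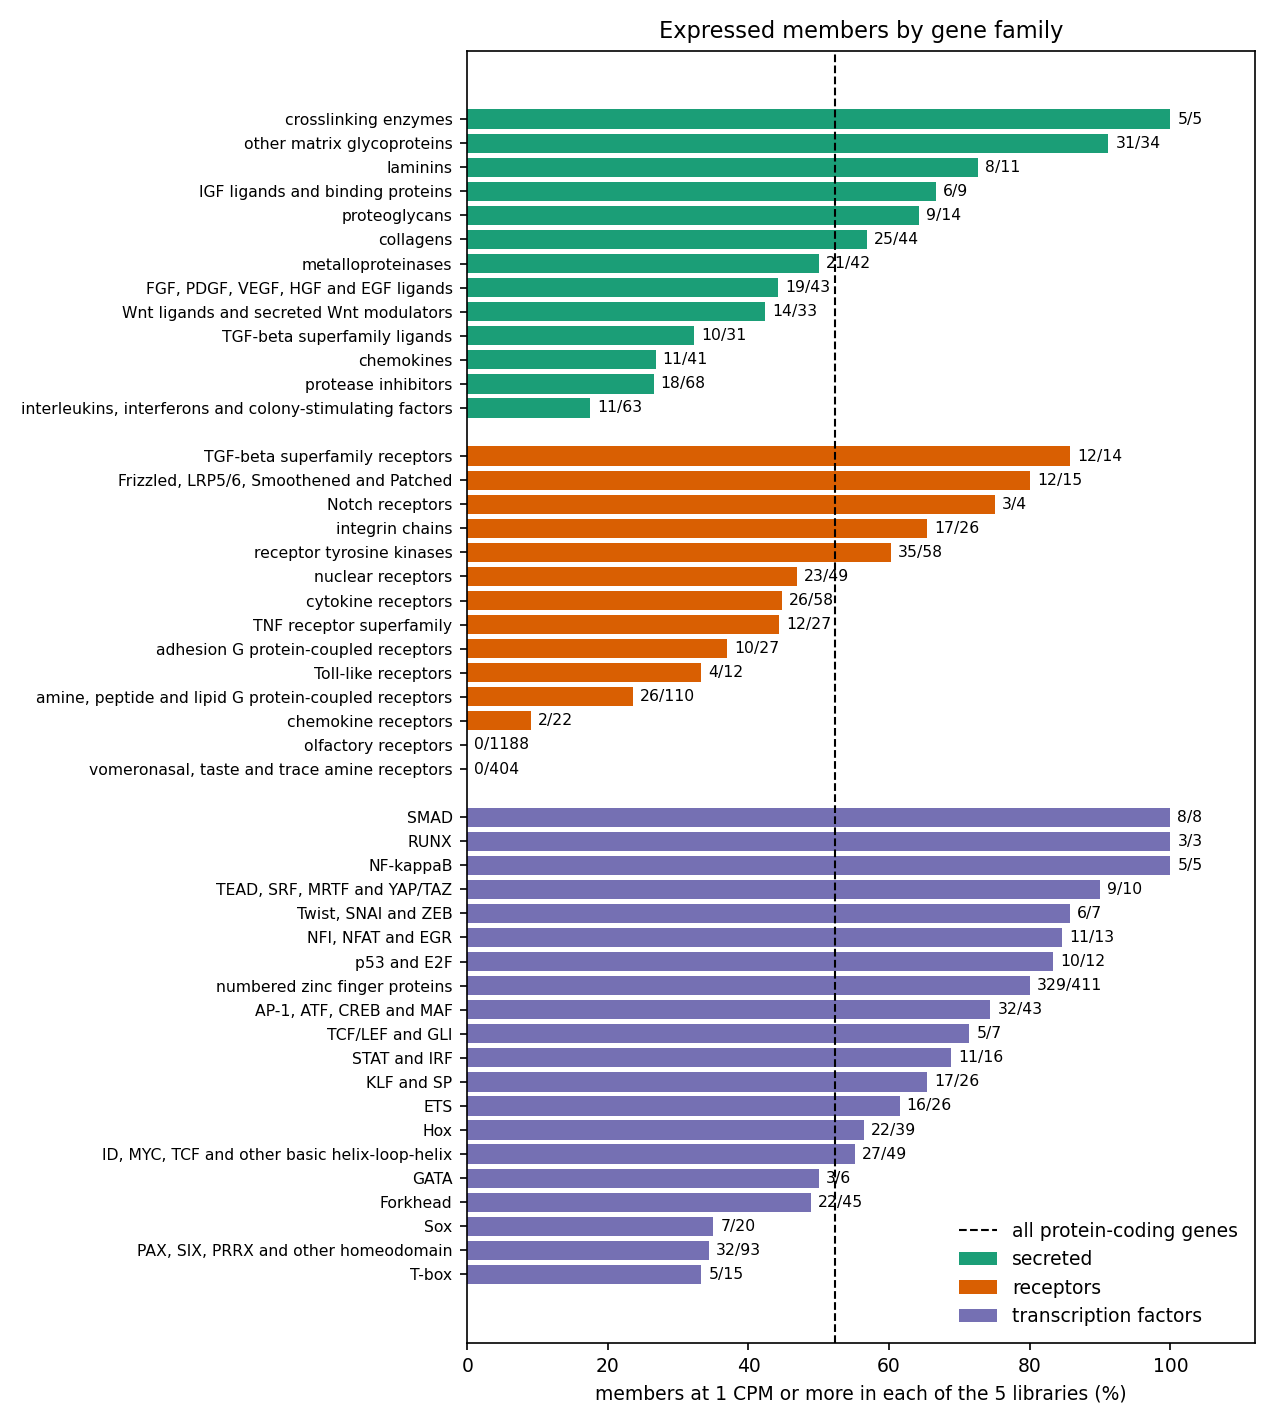
Percent of the members of each secreted, receptor and transcription factor family at 1 CPM or more in each of the 5 control libraries, with expressed over all members printed beside each bar and a dashed line at 52.3%, the share of all protein-coding genes. Matrix glycoproteins (31 of 34) and SMAD factors (8 of 8) lie above the line, and chemokine receptors (2 of 22) and olfactory receptors (0 of 1188) lie below it.

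The receptor lists held 2014 genes and 182 expressed members (9.04%), and chemosensory receptors made up most of the rest. None of 1188 olfactory receptors was expressed, and 37 had any count. The highest of them, Or4f61, had 1.78 ± 0.622 TPM. Of 404 vomeronasal, taste and trace amine receptors none was expressed and 21 had a count. Or4f61 apart, no olfactory receptor exceeded the 0.419 ± 0.245 TPM of Or5p58.

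Integrins, the heterodimeric receptors for matrix, had 17 of 26 chains expressed. Itgb1, the beta-1 chain that pairs with most matrix-binding alpha chains, had 970, 972, 834, 766 and 875 TPM in libraries 2 to 6, a mean of 884 ± 89.0, and was the highest of all receptors in the lists. It made up 56.5% of the summed TPM of the integrins. The fibronectin and vitronectin binding chains Itgav, Itgb5 and Itga5 had 174 ± 26.6, 148 ± 21.5 and 144 ± 32.9 TPM, and their ranges of mean ± SD overlapped. Of 58 receptor tyrosine kinases 35 were expressed and summed to 1870 ± 51.2 TPM. Axl, the receptor of Gas6, had 277 ± 15.8 TPM, the pseudokinase Ptk7 248 ± 7.07 and Ddr2, a receptor for fibrillar collagen, 184 ± 5.78.

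Most receptors for TGF-beta, Wnt, Hedgehog and Notch signals were expressed, beside 52.3% of all protein-coding genes. TGF-beta superfamily receptors had 12 of 14 members expressed (Bmpr1a 103 ± 5.69 TPM, Tgfbr2 101 ± 5.96, Tgfbr1 29.0 ± 1.74), and the Wnt and Hedgehog receptors had 12 of 15 (Smo 97.0 ± 1.24 TPM, Fzd2 93.4 ± 4.77, Fzd1 61.2 ± 7.19). Notch receptors had 3 of 4, and Notch2 at 72.1 ± 3.61 TPM stood above Notch1 at 17.1 ± 2.72 and Notch3 at 5.94 ± 1.89. Of 49 nuclear receptors 23 (46.9%) were expressed, with Nr2f6 at 79.0 ± 3.75 TPM, the retinoic acid receptor Rarg at 69.1 ± 4.37 and the glucocorticoid receptor Nr3c1 at 56 ± 3.90.

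Immune receptors were expressed in part. Of 58 cytokine receptors 26 were expressed, led by the interleukin-33 receptor Il1rl1 at 188 ± 40.1 TPM, and the shared subunit Il6st had 169 ± 24.8. Il1rl1 was highest in library 2 (240 TPM) and lowest in library 5 (145 TPM). Of 27 TNF receptors 12 were expressed, with Tnfrsf12a, the receptor of TWEAK, at 367 ± 34.9 TPM, Ltbr at 227 ± 11.6 and Tnfrsf1a at 90.4 ± 11.5. Toll-like receptors had 4 of 12 expressed, led by the lipopolysaccharide receptor Tlr4 at 16.3 ± 1.28 TPM, with Tlr2 at 6.06 ± 0.419 and Tlr6 at 3.30 ± 0.807. Chemokine receptors had 2 of 22, Cxcr6 at 11.4 ± 4.36 TPM and the scavenging receptor Ackr3 at 1.90 ± 0.598.

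Of 110 G protein-coupled receptors for amines, peptides and lipids 26 were expressed. F2r, the thrombin receptor PAR1, had 397, 387, 438, 359 and 397 TPM in libraries 2 to 6 and made up 54.4% of the sum of that list, before Adra1d at 63.3 ± 8.39 and the lysophosphatidic acid receptor Lpar1 at 44.7 ± 2.81. Adhesion G protein-coupled receptors had 10 of 27 expressed, with Adgrl1 at 73.2 ± 1.57 TPM, Adgra2 at 61.7 ± 3.56 and Adgre5 at 45.8 ± 8.94. Tfrc, the transferrin receptor, had 71.8 ± 1.62 TPM. Upp1, the gene of uridine phosphorylase-1, was low, with 0.364, 1.08, 0.613, 0.485 and 0.840 TPM, and did not meet the rule for expression.

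Of 854 transcription factors 580 (67.9%) were expressed, beside 52.3% of all protein-coding genes, and 329 of the 411 numbered zinc finger proteins (80.0%) were. The median SD of log2 CPM was 0.115 for the 368 factors at a mean of 10 CPM or more, 0.244 for the 141 secreted genes and 0.149 for the 127 receptors at that level, beside 0.0982 for the 9050 protein-coding genes at that level. Every SMAD (8), NF-kappaB (5) and RUNX (3) gene was expressed.

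The stress-responsive leucine zipper factor Atf4 was the most abundant factor, with 727, 724, 766, 740 and 767 TPM in libraries 2 to 6, and Atf5 followed at 338 ± 21.2. Id3, an inhibitor of basic helix-loop-helix factors, had 321 ± 29.7 TPM, and the AP-1 subunits Jund, Junb and Jun had 303 ± 16.9, 262 ± 62.3 and 225 ± 51.5. Klf6 had 230 ± 59.4 TPM, Nfe2l1 183 ± 3.23, Sox4 167 ± 13.9 and Hif1a 146 ± 9.75. Junb, Jun and Klf6 spread the most of these 10 factors. Junb was 362 TPM in library 2 and 209 in library 4, and Jun was 307 in library 2 and 175 in library 5. Egr1, an immediate early factor, was 111 TPM in library 2 and 32.6 in library 4.

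Factors of mesenchymal identity were at intermediate levels. Twist1 had 89.4 ± 8.90 TPM, Snai2 43.5 ± 9.55 and Snai1 36.8 ± 4.99, with 6 of 7 genes of the Twist, SNAI and ZEB group expressed. Tbx15, a limb and skin T-box factor, had 136 ± 6.30 TPM, far above Tbx18 at 24.7 ± 3.49 and Tbx5 at 3.90 ± 0.468. Effectors of the Hippo and serum response pathways were expressed in 9 of 10 cases, with Tead2 at 103 ± 5.91 TPM, Yap1 at 95.9 ± 5.39 and Srf at 77.5 ± 6.89. Among signal-regulated factors Stat3 had 119 ± 7.17 TPM, Smad3 78.7 ± 4.16 and Rela 66.6 ± 7.27, and Nfkb1 was almost the same in every library (33.8 to 35.4 TPM). Other family leaders were Myc at 145 ± 35.9 TPM, Elk3 at 102 ± 6.07, Irx1 at 81.3 ± 4.99, Foxk2 at 78.7 ± 5.69, Nfix at 77.0 ± 11.3, Trp53 at 55.4 ± 7.06, Gli3 at 27.5 ± 5.27, Gata6 at 19.0 ± 3.24 and Runx2 at 7.87 ± 2.02.

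Hox genes, which are arranged in 4 clusters and record position along the body and limb axes, were expressed in 22 of 39 cases. Hoxd13, the last gene of its cluster, led with 126, 126, 113, 128 and 122 TPM in libraries 2 to 6, a mean of 123 ± 5.66, before Hoxa11 at 31.5 ± 1.23 and Hoxa10 at 29.6 ± 4.62. By cluster, a division made after the values were seen, 8 of 11 Hoxa genes, 6 of 10 Hoxb genes and 7 of 9 Hoxd genes were expressed, but 1 of 9 Hoxc genes, Hoxc4. The summed TPM was 199 for Hoxd, 119 for Hoxa, 59.7 for Hoxb and 7.17 for Hoxc.

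Of the 5726 protein-coding genes without a count, 1534 (26.8%) were olfactory, vomeronasal, taste or trace amine receptors, 528 (9.22%) had only a model name (Gm and a number), 108 were keratin-associated proteins and 69 were defensins. The secreted lists added 108 such genes and the transcription factor lists 106. A count of 0 allowed a level of up to 0.0394 CPM over the 5 libraries together, or 0.144 to 0.259 CPM in single libraries, for counting error only.

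The label of fibroblasts was checked with marker genes. Fibroblast markers were expressed in 11 of 13 cases and summed to 17874 to 20842 TPM. The exceptions were Fap, with 0 to 6 counts in a library, and Lum (lumican), with 7.42, 4.00, 2.11, 1.80 and 0.256 CPM in libraries 2 to 6. Smooth muscle and myofibroblast markers were expressed in 6 of 7 cases, with summed levels of 7549 to 9058 TPM, while the smooth muscle myosin Myh11 had 3.12 ± 2.22 TPM. Desmin (Des) had 0.684 to 1.70 CPM.

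No marker of blood, liver or pluripotent cells met the rule for expression, and many had few counts or none. None of the 8 leukocyte markers was expressed, and Ptprc, the common leukocyte antigen CD45, had at most 1 count in a library. Cd68 had 0.730 to 1.42 CPM (3.24 ± 0.846 TPM), and Csf1r had 0.513 to 1.42 CPM. Lyz2 had 55 and 41 counts in libraries 2 and 3 and 1 to 6 in the others. Of the 5 erythroid markers 4 had no count. The hepatocyte genes Alb and Afp had 0 to 4 counts. Pou5f1 had none, and Nanog had 0.439 to 1.2 CPM. Endothelial Pecam1 and Cdh5 had 0 to 5 counts, although Kdr and Tek were expressed at 2.77 ± 0.459 and 1.55 ± 0.239 TPM. Neural Snap25, Rbfox3 and Olig2 had no count, and of that list Tubb3 alone was expressed, at 47.5 ± 10.2 TPM. Cartilage markers were expressed in 3 of 5 cases, Sox9 at 6.54 ± 2.10 TPM, Col2a1 at 4.69 ± 2.79 and Acan at 1.26 ± 0.621. Pericyte markers had 2 of 4 expressed (Cspg4 led at 25.3 ± 8.90 TPM) and adipocyte markers 2 of 5 (Fabp4 at 7.66 ± 1.04). Bone had 1 of 5 expressed (Runx2, 7.87 ± 2.02 TPM) and cardiac muscle 1 of 5 (Tnnt2, 6.30 ± 0.813). Skeletal muscle had 1 of 6 (Acta1, 16.1 to 24.9 CPM) and neural crest and melanocyte 1 of 5 (Mitf, 1.93 ± 0.242 TPM).

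Mesothelial markers, genes of the cells that line the body cavities, were all expressed, and their levels differed between libraries. The 6 genes summed to 210, 227, 422, 468 and 387 TPM in libraries 2 to 6. Msln (mesothelin) had 29.1, 33.5, 76.5, 103 and 96.0 CPM, and Upk3b had 4.62, 5.32, 17.1, 35.2 and 18.6 CPM. Wt1 had 5.72, 5.37, 8.93, 13.9 and 12 CPM. Krt19 varied less, from 54.4 CPM in library 2 to 88.7 in library 4. In bulk RNA, more cells of a type and more RNA per cell cannot be told apart. Epithelial markers were expressed in 3 of 8 cases, Krt14 at 29.3 ± 20.5 TPM, Krt8 at 14.8 ± 4.62 and Cdh1 at 1.99 ± 0.717. Krt14 had 3.85, 4.78, 18.1, 26.0 and 13.2 CPM in libraries 2 to 6. Epcam had 23 and 15 counts in libraries 2 and 3 and at most 1 in the others, and Krt5 had at most 2 counts. Krt18, Cldn4 and Esrp1 were likewise higher in libraries 2 and 3. Krt18 had 48 counts in each of these and 1 to 3 in the others. Cldn4 had 9 and 7 counts there, Esrp1 had 7 and 6, and both had none in the others. Both Xist (76.9 to 152 CPM) and the Y-linked Ddx3y (3.16 to 21.2 CPM) were expressed in each library, and Ddx3y was highest in libraries 2 and 3.

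**Figure D3:**
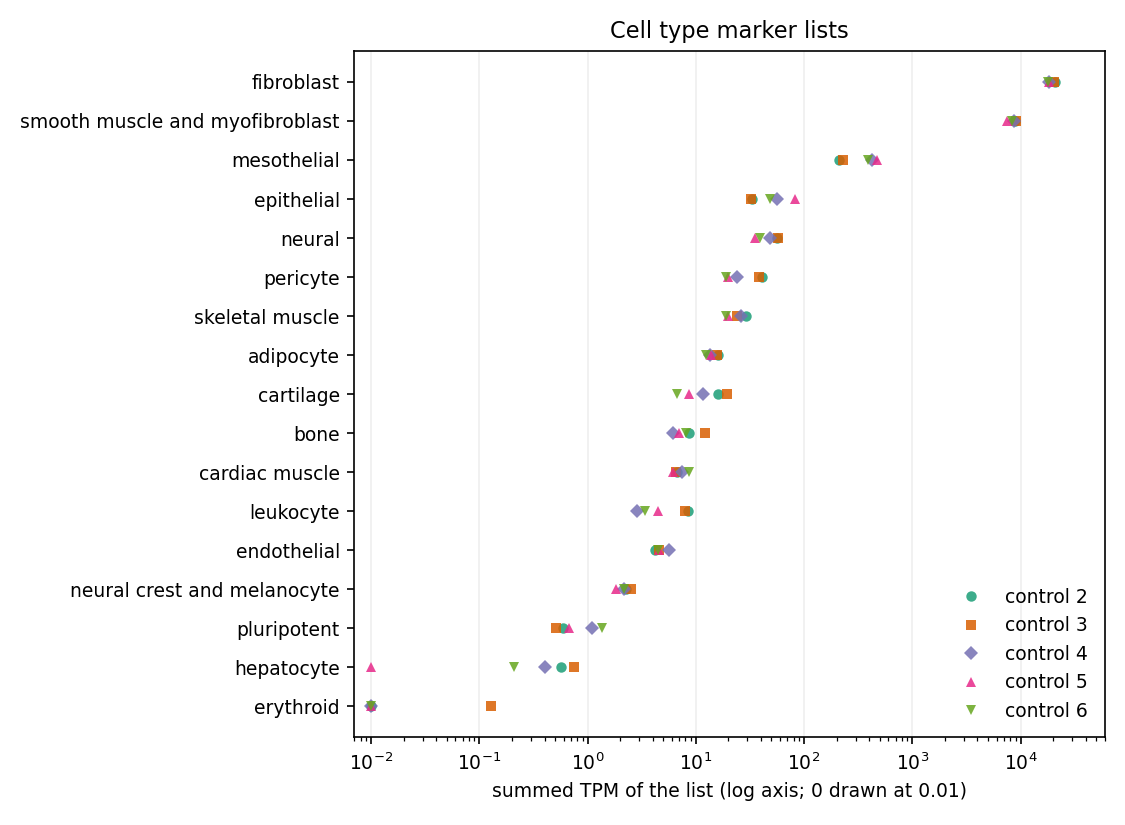
Summed TPM of each cell type marker list on a log axis, with 1 point per control library and sums of 0 drawn at 0.01. Fibroblast (17874 to 20842 TPM) and smooth muscle lists stand highest, the mesothelial list spreads from 210 to 468 TPM, and hepatocyte and erythroid lists stay under 1 TPM.

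Differences between the libraries were small for most genes and exceeded counting error at high abundance. The common biological coefficient of variation, edgeR's estimate of the spread beyond counting, was 10.3% over 12790 genes. For expressed genes at 1 to 10 CPM the median coefficient of variation was 16.3%, where counting alone gives 12.7%. It was 7.38% against 4.55% at 10 to 100 CPM, 5.34% against 2.05% at 100 to 1000 CPM and 6.18% against 0.667% for the 88 genes above 1000 CPM. Of 9050 protein-coding genes at a mean of 10 CPM or more, 6713 (74.2%) had a coefficient under 10% and 22 (0.243%) over 50%, and 180 (1.99%) had a highest library at least 2 times the lowest. The steadiest were Zmym2 (88.3 to 89.3 CPM), Dnaja2, Cdk16, Ttc3 and Clic4 (458 to 463 CPM).

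**Figure D4:**
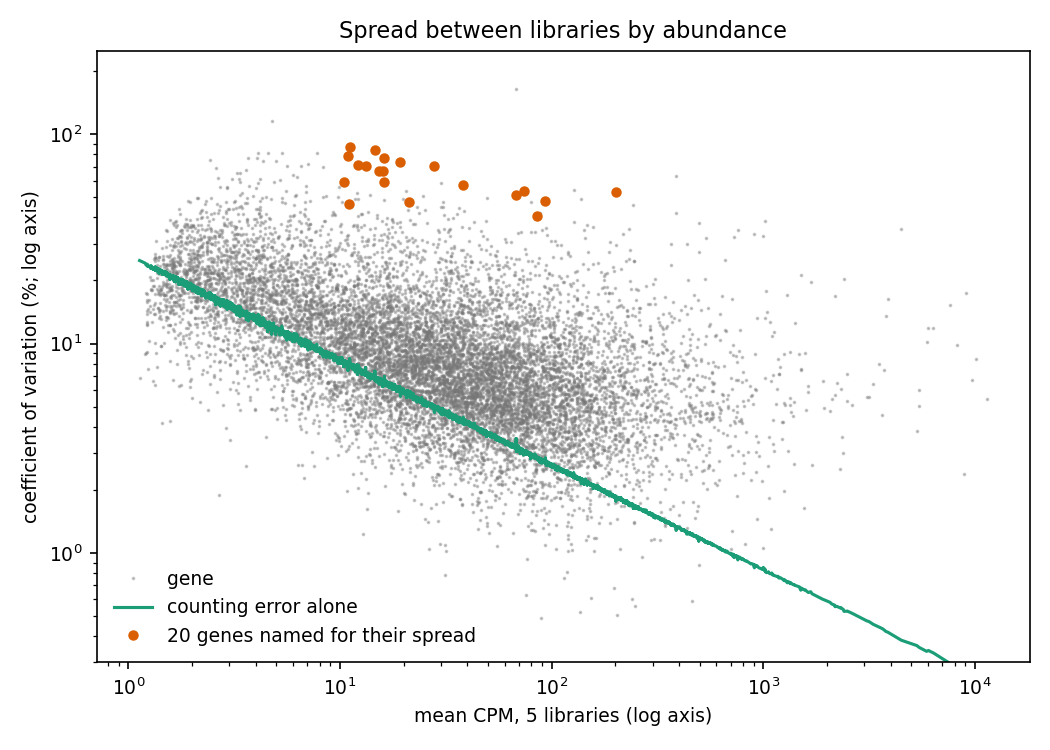
Coefficient of variation between the 5 control libraries against mean CPM for each expressed gene, both on log axes, with a line for counting error alone and the 20 protein-coding genes of largest log2 spread marked. The bulk of genes follows the line at low CPM and lies above it at high CPM, and the 20 marked genes stand above the cloud.

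The libraries were not equally alike. Across expressed genes, Pearson correlations of log2 CPM between pairs ran from 0.9862 (libraries 2 and 6) to 0.9963 (libraries 2 and 3), with genes as points that are not independent. Libraries 5 and 6 followed at 0.9935. A chi-square per gene was taken over each pair as a check for a library used more than once. It would be about 1 for repeated draws of reads from the same library, and lower for identical counts. The pairs gave 4.29 to 16.4, a value that also grows with depth. On the first principal component, which held 55.9% of the variance of the 9050 genes, libraries 2 and 3 scored 12.9 and 11.2, and libraries 4, 5 and 6 scored -4.64, -10.3 and -9.19. Libraries 2 and 3 also had the most gene counts (18.4 M and 20.8 M against 11.6 M to 13.3 M). Their shares of pairs set aside for low alignment quality were the lowest, at 6.25% and 7.1% against 9.38%, 8.96% and 11.7%. The part of depth and alignment quality in this split was not tested. The second component held 24.7% and set library 4 (11.4) apart from library 6 (-8.83).

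The 20 protein-coding genes with the largest spread of log2 CPM, at a mean of 10 CPM or more, fell into several patterns. Gpm6a, a neuronal membrane glycoprotein, had 2.42, 2.29, 13, 25.6 and 12.2 CPM in libraries 2 to 6, and Vnn1, a pantetheinase, had 3.41, 3.22, 13.9, 32.2 and 20.2. Upk3b, Krt14, Smpd3, Msln, Upk1b and Elavl2 were likewise lowest in libraries 2 and 3 and highest in library 5. Other genes were highest in library 2 and lowest in library 6, namely Hpgd, which inactivates prostaglandins (38.1, 30.0, 14.5, 9.89 and 4.10 CPM), Coch (50.8, 46.1, 23.5, 10.4 and 8.72) and Ccn5, a matricellular protein (322, 300, 186, 109 and 89.9). Ddx3y, Rtl3, Col2a1, Dkk3, Egr2 and Islr were also highest in library 2.

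In Igfbp3 and Eln library 6 stood below the others. Igfbp3, which binds insulin-like growth factors, had 26.2 CPM in library 6 and 88.7 to 118 CPM in the others. Eln, the elastin gene, had 5.04 CPM in library 6 and 18.6 to 31.0 CPM in the others. Clu, a secreted chaperone, was instead higher in libraries 2 and 3, with 30.9 and 23.1 CPM against 6.98 to 10.3 CPM in the others.

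Whether these differences recurred under the same number in cells that received uracil was tested in libraries that had not been used to choose the genes. The labels number the libraries 1 to 6 within each dose and do not say what a shared number marks. In the 10 µM and 30 µM libraries numbered 2 to 5 (8 libraries), edgeR's quasi-likelihood F test of number, with dose as a covariate, called 1258 of 14121 genes (8.91%) at an adjusted p under 0.05. The count was 787 by DESeq2, and it was 648 to 666 without number 2 or 3 at either dose (lowest share 4.48%). It was 1941 or 2003 without number 4, and without number 5 it was 2513 (17.3%) at 10 µM and 1483 (10.2%) at 30 µM. Number 1 was outside the main fit because its control library had been left out, and with it added the count was 1533 (10.7%). Of the 20 most variable genes 19 were called, and of the 100 most variable 91, whereas 0 of the 100 least variable genes were. Over all 9050 genes at that level 909 (10.0%) were called. Pairs set aside for low alignment quality made up 6.35%, 5.82%, 9.43% and 7.76% in libraries 2 to 5 at 10 µM. At 30 µM they made up 7.17%, 6.86%, 9.13% and 13.1%, and the part of this share in the calls was not tested. The test has no direction. Its p-values set the differences between numbers against the spread between the 10 µM and 30 µM libraries that share a number. Whether libraries that share a number came from separate cultures is not given in the labels and was not tested. The p-values are therefore not a measure of spread between independent cultures.

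Named genes showed the same levels number by number. Msln had 30.0, 35.5, 76.3 and 101 CPM in libraries 2 to 5 at 10 µM, and 31.4, 36.6, 71.5 and 114 at 30 µM (adjusted p = 1.89e-08, edgeR). Coch had 49.7, 48.7, 21.3 and 10.1 CPM at 10 µM and 55.4, 46.8, 21.6 and 9.13 at 30 µM (adjusted p = 1.87e-08, edgeR). Egr2, an immediate early zinc finger factor, had 30.7, 17, 10.5 and 6.39 CPM at 10 µM and 28.8, 16.3, 9.65 and 7.04 at 30 µM (adjusted p = 2.14e-07, edgeR). Clu did not follow the numbers. Its values were 23.4, 4.66, 7.25 and 10.4 CPM at 10 µM and 4.85, 4.21, 38.5 and 8.69 at 30 µM (adjusted p = 0.766, edgeR).

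Among numbers 2 to 5, 19 of the 20 genes were highest under the same number at 10 µM as in the controls, and 18 at 30 µM. Over all 9050 genes this held for 45.8% and 37.1%. Of the marker genes at that level, all 4 mesothelial genes, 5 of 11 fibroblast genes and 3 of 5 smooth muscle and myofibroblast genes were called, beside 10.0% of the 9050 genes at that level. The fibroblast genes called were Dcn (adjusted p = 1.02e-07), Postn (9.65e-07), Pdgfrb (2.32e-05), S100a4 (5.34e-03) and Pdgfra (2.07e-02), all by edgeR. Dcn (decorin) had 89.4, 65.4, 174, 223 and 82.2 CPM in control libraries 2 to 6, and Postn (periostin) had 211, 177, 162, 102 and 81.3.

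Number 6 was outside this test, since 5.24% of read pairs at 10 µM and 37.9% at 30 µM were unaligned there. Its values are given without a test. Igfbp3 had 26.1 CPM in the control, 28.9 at 10 µM and 25.8 at 30 µM, and Eln had 5.02, 5.37 and 5.75 CPM in the same order, scaled over 17 libraries. In the uracil libraries numbered 2 to 5 Igfbp3 had 92.2 to 131 CPM and Eln 18.3 to 36.8 CPM.

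**Figure D5:**
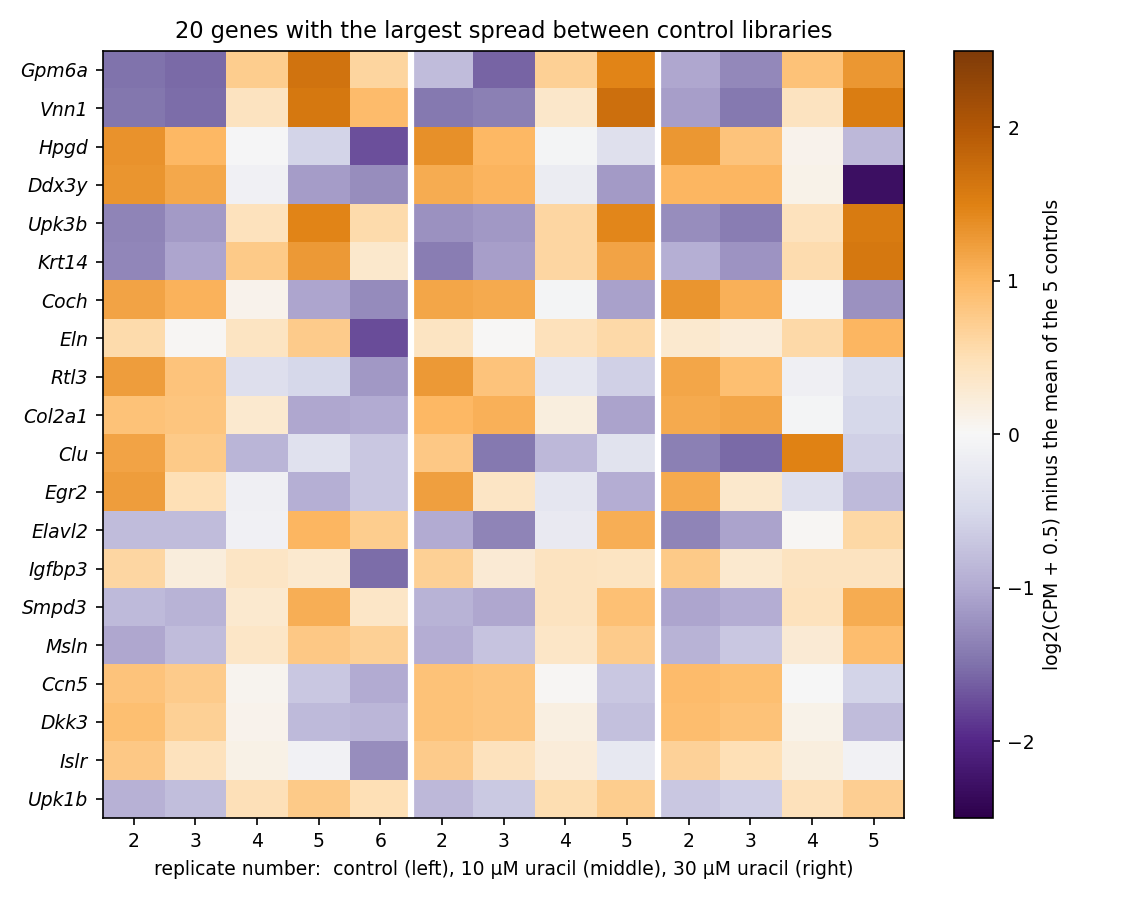
Log2(CPM + 0.5) minus the mean of the 5 control libraries for the 20 genes of largest spread, with control libraries 2 to 6 on the left, 10 µM libraries 2 to 5 in the middle and 30 µM libraries 2 to 5 on the right. The pattern by number recurs in all 3 blocks for genes such as Msln and Coch, and Clu is the exception.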

How the data were processed

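Total RNA from MEFs was sequenced as stranded, ribosomal RNA depleted, paired-end libraries, 6 for each of 3 doses. The authors deposited raw counts per Ensembl gene with no normalisation, and the submitters' notes name FastQC, HISAT2, SAMtools 1.2, HTSeq and the build GRCh38. All identifiers are mouse identifiers, so the mouse build, the annotation and whether counting used strand are not given in the sources used here. The study set aside a vehicle and a 30 µM sample that held human RNA, and the labels do not say which. Unaligned pairs were most frequent in the control numbered 1 (54.2%) and the 30 µM library numbered 6 (37.9%). Whether these are the samples set aside was not tested. The 5 entries for uncounted pairs were kept out of library sizes (no feature 7.82% to 8.64% of pairs, several places 17.4% to 20.0%, low alignment quality 6.25% to 11.7%, ambiguous 1.50% to 1.57%). Of 18 count columns, 0 lacked a sample.

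Titles gave each library its dose and number. The study prepared biological replicates. Titles carry the number after MEF at each dose, and library names run through the doses of a number before the next. Neither says what a number marks. GENCODE M39 (GRCm39) named 51731 of 55487 genes and gave merged exon lengths, and RefSeq windows on GRCm38.p6 gave sequences. CPM was scaled by TMM, log2 CPM used a prior count of 2, and TPM used genes of 200 bases or more. The number test used edgeR 4.0.16 in R 4.3.3 (filterByExpr, TMM, robust quasi-likelihood fit, Benjamini-Hochberg over all genes tested, threshold 0.05) and was checked on simulated counts. DESeq2 1.42.0, other normalisations, expression limits and lengths, and leaving out each library were tried as alternatives.

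The libraries, gene lists and tests were chosen with earlier results of these data known, so lists and families are described by counts. Genes were named as the 25 protein-coding and 10 other genes of highest mean TPM, the mitochondrial mRNAs and the leaders of each class and family. The 20 most and 5 least variable genes, markers from every list, and Fn1, Itga5, Itgb1, Upp1 and Tfrc were added. Pairs aligned to several places were lost, overlapping genes are uncertain, and depth (11.6 M to 20.8 M counts) limits genes under about 1 CPM.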

Additional observations from a re-analysis of the deposited data

Results flagged for a closer look

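In 5 of 97 sets of 5 control values examined, 1 library lay far from the other 4 (Dixon's test, which marks about 5% of sets by chance). Actb had 8500 CPM in library 5 and 8898 to 9006 CPM in the others. Col1a1 had 6826 CPM in library 4 and 8441 to 8889 CPM in the others. Sparc had 3226 CPM in library 6 and 3745 to 3922 CPM in the others. Tubb5 had 2411 CPM in library 3 and 2262 to 2301 CPM in the others. Id3 had 161 CPM in library 5 and 127 to 136 CPM in the others. The 5 sets fell on 4 different libraries.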

How the results depend on the processing

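Of 111 recomputed summary values, 93 stayed within the spread of the libraries or within 1.5 times the main count. The 12394 expressed genes ranged from 12227 to 13326 over the other settings. With CPM and no length, 11 of the 25 leading genes remained. With control replicate 1 added, protein-coding genes held 94.6% of counts, long non-coding genes 0.613% and processed pseudogenes 0.894%, and the common biological coefficient of variation rose to 17.7%. Without the 10 most abundant genes these shares were 96.5%, 0.650% and 1.03%, and ribozymes held 0.102% in place of 0.730%, since Rpph1 is one of the 10. The number test called 787 genes by the DESeq2 likelihood ratio test and 1978 with no filter on low counts, and 648 to 2513 when 1 library was left out. It called 648 or 653 without number 2 (10 µM or 30 µM), 666 or 663 without number 3, 2003 or 1941 without number 4, and 2513 or 1483 without number 5. With number 1 added it called 1533. The cause of these shifts was not tested. Of the 20 most variable genes 18 or 19 were called under every setting of that test. Eln lost its call without number 3 (adjusted p = 0.088 or 0.0784, edgeR) and Igfbp3 without number 2 (0.0725 or 0.125). No paired analysis was possible because no dose was compared and the replicate number is itself the term tested.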
